A study of Rattus norvegicus with 6 samples.

Results

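The unfolded protein response and the integrated stress response are the programmes by which a cell adjusts its translation, folding capacity and amino acid supply, and the genes described are 36 of their components. The 36 symbols were taken from a list, and each was found among the 32623 genes of the deposited table by its name. No measured value entered that look-up, but the list itself was drawn up with earlier results of these data known. Tests covered the 13105 genes whose FPKM (fragments per kilobase of transcript, scaled to sequencing depth) averaged 1 or more over the 6 libraries, and 35 of the 36 members were among them. Fgf21, a secreted metabolic hormone, was the member left untested.

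The libraries are RNA sequencing of ventricular cardiomyocytes from Sprague-Dawley rats aged postnatal day 1 to 3. Cells of 1 isolate, pooled from several rats, received a small interfering RNA against Mettl3 (siMETTL3, 3 libraries) or the siNC RNA (3 libraries) for 24 h, and all of them then received lipopolysaccharide (LPS), the endotoxin of Gram-negative bacteria, for 6 h. The libraries are thus not separate animals, and p-values reflect only how far these samples differ from each other, a spread that may be technical. Cells without LPS were not analysed here, and no value is a response to LPS.

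Unfolded protein in the endoplasmic reticulum (ER) is sensed by the membrane proteins PERK (gene Eif2ak3), IRE1 (Ern1) and ATF6. PERK and the amino acid sensor GCN2 (Eif2ak4) phosphorylate the translation factor eIF2, which lowers protein synthesis while favouring translation of the transcription factor ATF4. ATF4 in turn raises genes of amino acid supply, redox balance and feedback control, whereas ATF6 and the XBP1 factor spliced by IRE1 raise ER chaperones and the machinery of ER-associated degradation. ATF4 is therefore controlled largely at translation, and its messenger RNA is only part of its regulation.

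Many of these genes are read by factors that bind short promoter elements, and the elements of both branches were looked for in the 250 bases before the transcription start, on both strands, in RefSeq promoter sequences of build GRCr8. Windows were at hand for 31 members; Atf6, Ern1, Pdia3, Pdia6 and Manf are named only. The C/EBP-ATF response element, the element bound by ATF4 with C/EBP partners, was searched as TGATGNAAN. It was found in 6 of the 31 members and in 3.38% of all 33469 windows. Those 6 are shown because they include 3 of the 4 members that were lower in siMETTL3 cells (Nupr1, Chac1 and Trib3), beside 3 that did not pass or were not tested (Fgf21, Ppp1r15b and Herpud1). Capitals mark the match, and each sequence is 5′ to 3′ on the strand of the gene. The match is on the opposite strand in all but Ppp1r15b.
Nupr1, chr1:190645929-190645977, minus strand, match from base 56 to base 48 before the start: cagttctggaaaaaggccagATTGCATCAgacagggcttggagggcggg
Chac1, chr3:126795943-126795991, plus strand, bases 168 to 160: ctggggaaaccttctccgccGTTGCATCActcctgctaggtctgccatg
Trib3, chr3:161275534-161275575, minus strand, bases 22 to 14: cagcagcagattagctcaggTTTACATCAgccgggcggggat
Fgf21, chr1:105221492-105221540, minus strand, bases 144 to 136: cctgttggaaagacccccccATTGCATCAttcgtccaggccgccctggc
Ppp1r15b, chr13:47129802-47129850, plus strand, bases 178 to 170: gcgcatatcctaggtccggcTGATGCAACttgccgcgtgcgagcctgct
Herpud1, chr19:10614864-10614912, minus strand, bases 185 to 177: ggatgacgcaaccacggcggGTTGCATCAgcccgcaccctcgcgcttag

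The ER stress response element, bound by ATF6 and XBP1, has CCAAT and CCACG separated by 9 unspecified bases. It was found in 4 of the 31 members (Xbp1, Calr, Canx and Creld2) and in 0.0657% of all windows. The shorter form II of that element, in which ATTGG and CCACG are separated by 1 base, was found in Hyou1 and Herpud1 and in 0.0418% of windows. The unfolded protein response element TGACGTGG was found in Hyou1, overlapping the first of its 2 form II matches (printed), and in 0.52% of windows. These are shown because they mark the ATF6 and XBP1 branch, and none of their genes passed the test. In 3 of the 5 lines the match lies on the opposite strand and reads as the complement.
Xbp1, chr14:84604538-84604596, plus strand, bases 65 to 47 before the start: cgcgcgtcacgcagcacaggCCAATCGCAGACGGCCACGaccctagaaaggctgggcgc
Calr, chr19:40213117-40213173, plus strand, bases 232 to 214: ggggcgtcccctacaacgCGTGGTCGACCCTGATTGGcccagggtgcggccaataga
Canx, chr10:35158049-35158107, minus strand, bases 230 to 212: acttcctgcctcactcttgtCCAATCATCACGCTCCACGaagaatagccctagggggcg
Creld2, chr7:121789219-121789277, plus strand, bases 145 to 127: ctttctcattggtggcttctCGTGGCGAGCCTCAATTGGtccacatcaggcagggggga
Hyou1, chr8:53602674-53602724, plus strand, bases 188 to 178: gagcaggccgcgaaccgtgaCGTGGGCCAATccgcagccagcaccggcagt
A match describes letters in this window and is no evidence of binding in these cells. The shares of members count genes, whereas the shares of all windows count windows. Members were listed as components of these responses, so their shares beside those of all windows are descriptive only.

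Mettl3, which encodes the catalytic subunit of the m6A methyltransferase, measured 10.3, 10.6 and 9.9 FPKM in the siMETTL3 libraries and 18.2, 17.2 and 15.3 FPKM in the siNC libraries. It was lower in every siMETTL3 library, at 60.6% of the siNC mean (log2 fold change -0.80, SE 0.079, adjusted p = 0.00293 with edgeR's quasi-likelihood test). The total count was 71202469 to 76668751 per library. The 8 cardiomyocyte markers were abundant, summing to 12168 to 13835 FPKM in siMETTL3 and 13331 to 14825 FPKM in siNC libraries, and 2 of them fell (Myh7 and Actc1). Markers of other cells moved with the groups: 6 of 8 fibroblast markers fell, 7 of 7 tested macrophage and leukocyte markers and 4 of 6 smooth muscle and pericyte markers. Fibroblast markers summed to 907 to 965 FPKM in siMETTL3 and 1485 to 1555 FPKM in siNC libraries. Most of that sum was Col1a1 (719.8 to 779 FPKM in siMETTL3 and 1183 to 1216 FPKM in siNC libraries), and Dcn and Tcf21 did not pass. Macrophage markers summed to 40.7 to 52.2 FPKM in siMETTL3 and 77.5 to 95.2 FPKM in siNC libraries. Smooth muscle markers summed to 2491 to 2702 FPKM in siMETTL3 and 3715 to 4216 FPKM in siNC libraries. Of 4 tested endothelial markers 2 rose and 1 fell, with sums of 16.3 to 17.7 FPKM in siMETTL3 and 14.4 to 16.6 FPKM in siNC libraries. No marker found was at a count of 0 in any library. In these bulk samples fewer cells of a type and less RNA per cell cannot be told apart, and the part of these cells in the values below was not tested.

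In the comparison of siMETTL3 with siNC cells, genes of the ATF4 branch were lower or did not pass, with Gdf15 as the exception that was higher, and no gene of ER folding or degradation passed. Of the 35 tested members, 4 fell (Nupr1, Chac1, Vldlr and Trib3) and 1 rose (Gdf15), by edgeR's quasi-likelihood test on counts with Benjamini-Hochberg adjustment over all 13105 genes at 0.05. Over all tested genes 9.98% passed, 6.59% lower and 3.39% higher, against 14.3% of the members. DESeq2 called 1 member higher and 7 lower, where it called 7.71% of all genes higher and 10.6% lower, and limma called 2 higher and 3 lower, where it called 6.53% higher and 4.4% lower. The members that passed all belong to the ATF4 branch, of which 5 of 19 tested genes passed. Its median log2 fold change (siMETTL3 over siNC) was -0.18, where all tested genes had 0.00, and 15 of the 19 lay below 0, as did 49.5% of all genes. For the 13 genes of ER folding and degradation 0 passed, the median was 0.00 and 7 lay below 0. At an unadjusted p under 0.05, which 27.6% of all tested genes met, 1 of those 13 and 12 of the 19 ATF4-branch genes would count. For the 13, DESeq2 called 0 and limma on log2(FPKM + 1) called 1 (Hyou1, also the gene under 0.05 unadjusted). No test of the difference between the branches was made. Because the members were listed with earlier results of these data known, their shares beside those of all genes are descriptive only.

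**Figure D1:**
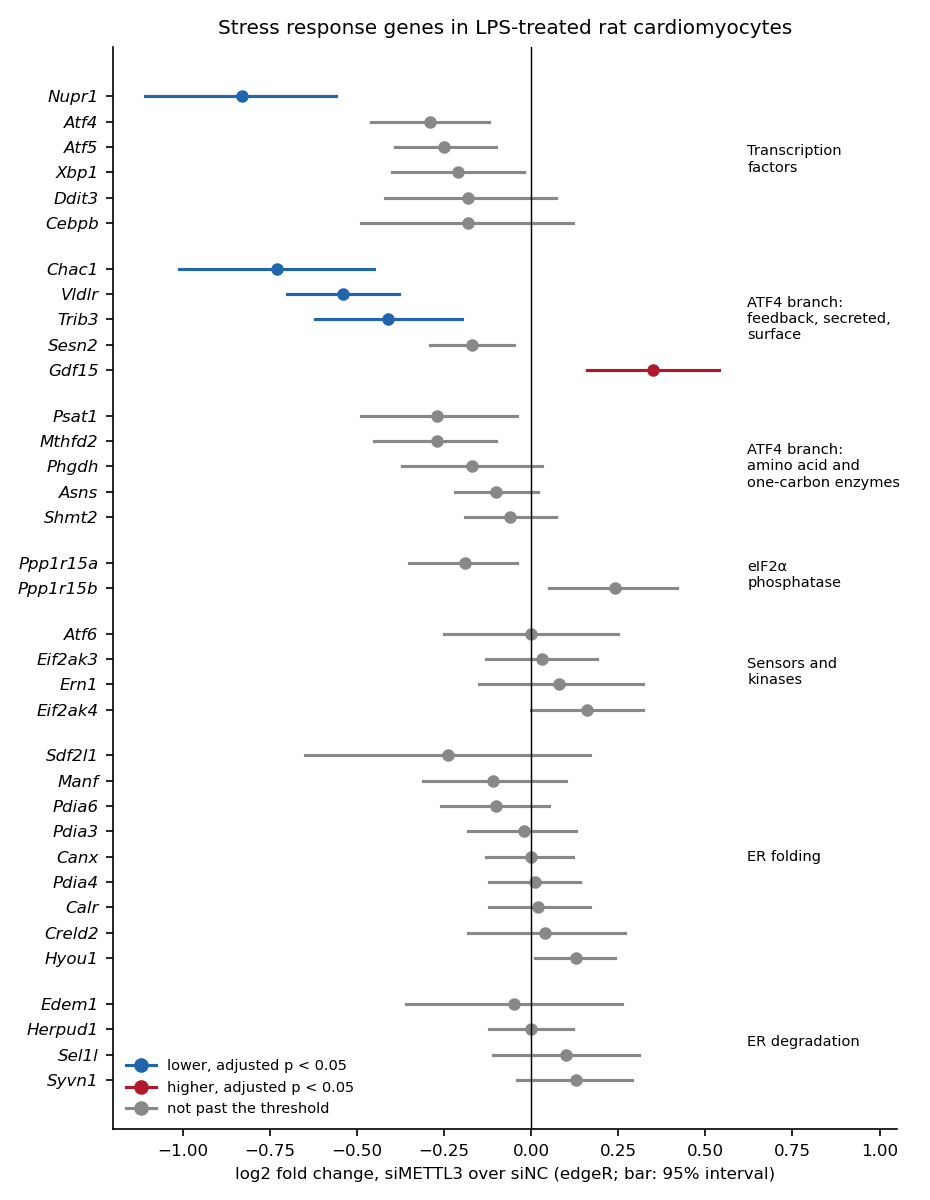
Log2 fold change of the 35 tested members, siMETTL3 over siNC (points, edgeR), with 95% intervals (bars), grouped by role. The 4 genes that fell (blue) and the 1 that rose (red) all belong to the ATF4 branch, and the ER folding and degradation genes lie between -0.24 and 0.13.

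Averaged over the 19 genes of the ATF4 branch, the deviation from the siNC mean in log2 scaled counts was -0.20, -0.24 and -0.16 in siMETTL3 replicates 1, 2 and 3, against -0.01, 0.03 and -0.03 in the siNC libraries. The same average over the 13 ER folding and degradation genes was 0.00, -0.07 and 0.05 in the siMETTL3 libraries, against 0.01, 0.01 and -0.02 in the siNC libraries. The first set of averages separates the groups and the second overlaps. Deviations were taken from the siNC mean, so the siNC averages centre on 0 by construction. The first set includes the genes that passed, and no such average was taken over other genes. The separation is therefore a description and no test of the branch.

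Among the transcription factors, Nupr1 fell and the others did not pass. Nupr1, a small stress-induced chromatin protein, measured 19.4, 16.5 and 21.4 FPKM in the siMETTL3 libraries and 32.5, 34.6 and 29.9 FPKM in the siNC libraries. Every siMETTL3 library lay below every siNC library. The mean was 19.1 ± 2.5 FPKM against 32.3 ± 2.32 FPKM (SD, n = 3 each), or 59.1% of the siNC level, with a log2 fold change of -0.83 (SE 0.117, edgeR adjusted p = 0.00888). It was the largest change among the 35 tested members, and the call held whichever library was left out (adjusted p 0.0160 to 0.0459). The table places the gene (ENSRNOG00000019206) on chromosome 1, minus strand, from 194767474 to 194769524, on a build it does not name.

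Atf4, the central factor of the branch, measured 99.7, 90.7 and 102 FPKM in siMETTL3 and 114, 120.1 and 105 FPKM in siNC libraries. The groups did not overlap, which held for 37.9% of all tested genes and 13 of the 35 members. With siMETTL3 below, as here, it held for 11.5% of all tested genes and 8 members. With siMETTL3 above, it held for 26.4% of all tested genes and 5 members. For Atf4 the test was missed by a small margin (log2 fold change -0.29, SE 0.0725, edgeR adjusted p = 0.05001). DESeq2 called Atf4 (adjusted p = 0.00752), limma did not (adjusted p = 0.0989), and edgeR called it without siNC replicate 3 (adjusted p = 0.0458). Atf5, a related factor also translated under eIF2 phosphorylation, measured 19.8, 19.3 and 20 FPKM in siMETTL3 and 23.4, 21.4 and 21.7 FPKM in siNC libraries (log2 fold change -0.25, SE 0.0624, edgeR adjusted p = 0.0524). Its groups did not overlap either. DESeq2 called Atf5 lower (adjusted p = 0.0253), limma did not (adjusted p = 0.0987), and limma after median-ratio scaling did (adjusted p = 0.0426).

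Ddit3, which encodes the pro-apoptotic factor CHOP, measured 41.9, 32.2 and 38.8 FPKM in siMETTL3 and 41.0, 41.0 and 39.1 FPKM in siNC libraries. Replicates 2 and 3 of siMETTL3 lay below every siNC library, replicate 3 narrowly. Replicate 1 lay above them, so the groups overlapped (log2 fold change -0.18, 95% interval -0.42 to 0.07). Xbp1, the factor activated by IRE1 splicing, measured 61.9, 54.5 and 60.2 FPKM in siMETTL3 and 64.8, 69.6 and 59.6 FPKM in siNC libraries (log2 fold change -0.21, edgeR adjusted p = 0.144). Gene totals of this kind do not separate its spliced from its unspliced form. Cebpb, a partner of ATF4 on the element shown above, overlapped between groups at 11.2 ± 1.75 FPKM in siMETTL3 and 12.0 ± 0.963 FPKM in siNC libraries (SD, n = 3 each).

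**Figure D2:**
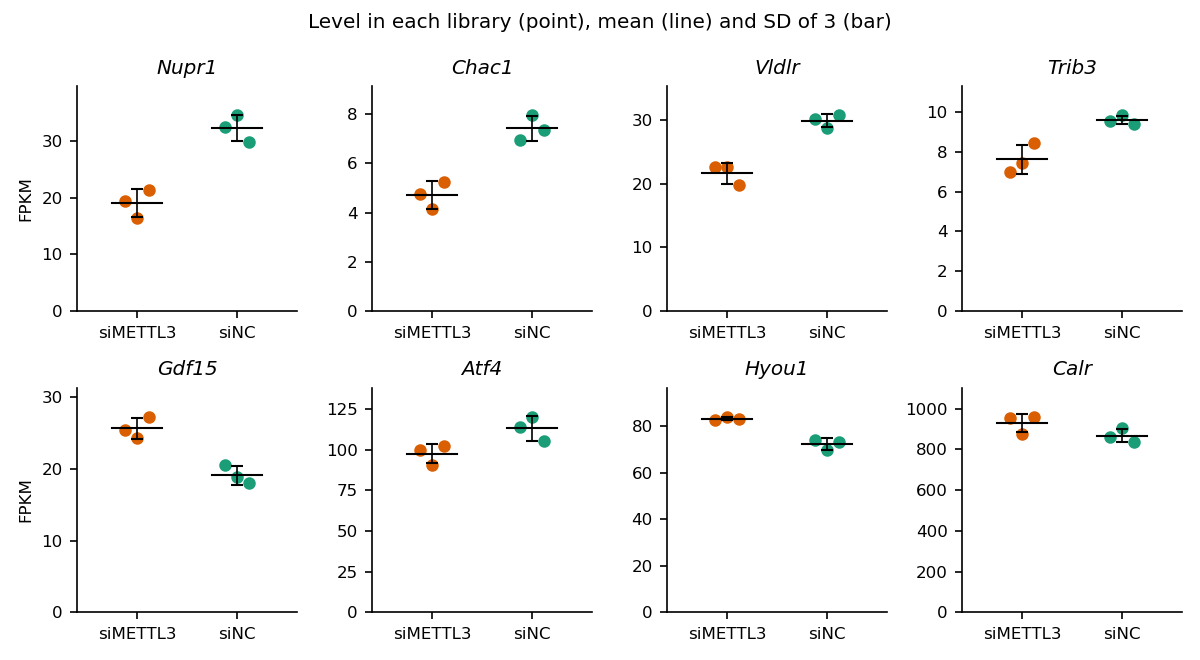
FPKM in each library (points, siMETTL3 left, siNC right), with the mean (line) and SD of 3 libraries (bar), for 8 members. Nupr1, Chac1, Vldlr, Trib3 and Atf4 are lower in every siMETTL3 library, Gdf15 and Hyou1 are higher in every one, and Calr overlaps.

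The feedback, redox, surface and secreted products of the ATF4 branch held 4 of the 5 members that passed. Chac1 encodes an enzyme that degrades glutathione. It measured 4.75, 4.13 and 5.25 FPKM in siMETTL3 libraries and 6.95, 7.95 and 7.36 FPKM in siNC libraries. The groups did not overlap, and the mean stood at 63.5% of the siNC level (log2 fold change -0.73, SE 0.119, edgeR adjusted p = 0.0137). The call was lost without siMETTL3 replicate 1 (adjusted p = 0.0584) or siNC replicate 2 (adjusted p = 0.0509).

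Vldlr, a receptor that takes up triglyceride-rich lipoproteins, measured 22.7, 22.6 and 19.8 FPKM in siMETTL3 libraries and 30.2, 28.8 and 30.8 FPKM in siNC libraries. Its means, 21.7 ± 1.66 FPKM against 29.9 ± 1.00 FPKM (SD, n = 3 each), were apart by far more than either spread (log2 fold change -0.54, SE 0.0685, edgeR adjusted p = 0.00716). The smallest adjusted p among the members was this one, and it stayed at 0.0169 to 0.0357 with each library left out. No C/EBP-ATF match was found in its 250-base window.

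Trib3 encodes a pseudokinase that binds ATF4 and CHOP and restrains them. It measured 7.01, 7.44 and 8.44 FPKM in siMETTL3 libraries and 9.54, 9.85 and 9.43 FPKM in siNC libraries, with no overlap (log2 fold change -0.41, SE 0.0898, edgeR adjusted p = 0.0348). Of the 6 fits that leave out a library, the call held in the one without siMETTL3 replicate 3 (adjusted p = 0.0331). Without siMETTL3 replicate 1 or 2 the adjusted p was 0.12 and 0.0871, and without siNC replicate 1, 2 or 3 it was 0.109, 0.0946 and 0.06. Limma on the deposited FPKM gave 0.0511, edgeR with library totals alone 0.0545 and edgeR on every gene with a count 0.0521. Limma after median-ratio scaling gave 0.034 and DESeq2 0.00173 (adjusted p each).

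Gdf15, a secreted stress cytokine that acts on the brainstem to suppress appetite, was the member called higher. It measured 25.5, 24.4 and 27.3 FPKM in siMETTL3 libraries and 20.6, 18.9 and 18.0 FPKM in siNC libraries. All siMETTL3 libraries were higher (log2 fold change 0.35, SE 0.0792, edgeR adjusted p = 0.0376). The call held without siMETTL3 replicate 2 (adjusted p = 0.0484). It was lost without siMETTL3 replicate 1 or 3 (adjusted p = 0.126 and 0.11) and without siNC replicate 1, 2 or 3 (adjusted p = 0.0818, 0.0972 and 0.0795).

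Sesn2, a stress-induced inhibitor of mTORC1 that senses leucine, measured 20.7, 20.8 and 21.8 FPKM in siMETTL3 and 22.0, 23.2 and 22.4 FPKM in siNC libraries (log2 fold change -0.17, edgeR adjusted p = 0.0845). The groups were separated by a narrow gap and the gene did not pass. Fgf21 had counts of 17, 8 and 0 in the siMETTL3 libraries and 0, 4 and 0 in the siNC libraries, too few to compare.

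None of the 5 amino acid and folate enzymes passed with edgeR, although all 5 had a fold change below 0. At an unadjusted p under 0.05 2 of them would count, where 27.6% of all tested genes do, DESeq2 called 1 (Mthfd2, adjusted p = 0.02) and limma 0. Mthfd2, a mitochondrial enzyme of the folate cycle, measured 32.4, 30.9 and 31.0 FPKM in siMETTL3 and 36.3, 39.3 and 32.7 FPKM in siNC libraries (log2 fold change -0.27, SE 0.0758, edgeR adjusted p = 0.0654). The groups were separated, and edgeR called the gene without siNC replicate 3 (adjusted p = 0.0374). Psat1 and Phgdh, which make serine, averaged 9.14 ± 1.12 and 26.7 ± 2.28 FPKM in siMETTL3 and 10.4 ± 0.334 and 28.5 ± 1.83 FPKM in siNC libraries (SD, n = 3 each). Asns, which makes asparagine and is a classical ATF4 target, overlapped at 31.5 to 33.6 FPKM in siMETTL3 and 32.1 to 33.6 FPKM in siNC libraries, with a log2 fold change of -0.10 (95% interval -0.22 to 0.02). Shmt2, which passes serine carbon into the mitochondrial folate cycle, had -0.06 (95% interval -0.19 to 0.07). With library totals as the only scaling 4 of the 5 lay below 0, where 4756 of all 13105 tested genes did.

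The subunits that bring the phosphatase to eIF2 lay on opposite sides of 0. Ppp1r15a, the stress-induced subunit GADD34, measured 35.4, 35.7 and 40.5 FPKM in siMETTL3 and 40.8, 40.9 and 39.4 FPKM in siNC libraries (log2 fold change -0.19, edgeR adjusted p = 0.108). Ppp1r15b, the constitutive subunit, measured 10.1, 12.1 and 10.4 FPKM in siMETTL3 and 8.66, 8.49 and 9.09 FPKM in siNC libraries (log2 fold change 0.24, edgeR adjusted p = 0.105). Of these genes 0 passed with edgeR, DESeq2 or limma, while both had an unadjusted p under 0.05. With library totals as the only scaling edgeR called Ppp1r15b higher (adjusted p = 0.0487).

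For the sensors and kinases 0 of 4 genes passed with edgeR, 0 had an unadjusted p under 0.05, and DESeq2 and limma called 0. Eif2ak3 averaged 8.05 ± 0.420 FPKM in siMETTL3 and 7.49 ± 0.259 FPKM in siNC libraries, Ern1 8.86 ± 0.817 and 7.94 ± 0.886 FPKM, and Atf6 18.3 ± 1.39 and 17.4 ± 2.41 FPKM (SD, n = 3 each, siMETTL3 given before siNC). Eif2ak4 was the one with separated groups, at 4.23, 4.81 and 4.28 FPKM in siMETTL3 and 3.87, 3.71 and 3.76 FPKM in siNC libraries (log2 fold change 0.16, edgeR adjusted p = 0.193). The 4 fold changes lay at or above 0 (0.00 to 0.16), and all 4 lay below 0 once each library's trend with gene length was removed, an alternative chosen after seeing the data. Genes of different length deviated unequally between libraries: the median log2 deviation of genes above 3094 bases minus that of genes below 1716 bases was 0.006, 0.233 and -0.032 in siMETTL3 replicates 1, 2 and 3 and -0.093, -0.197 and 0.063 in siNC replicates 1, 2 and 3. The part of gene length in the sensors' values was not tested.

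**Figure D3:**
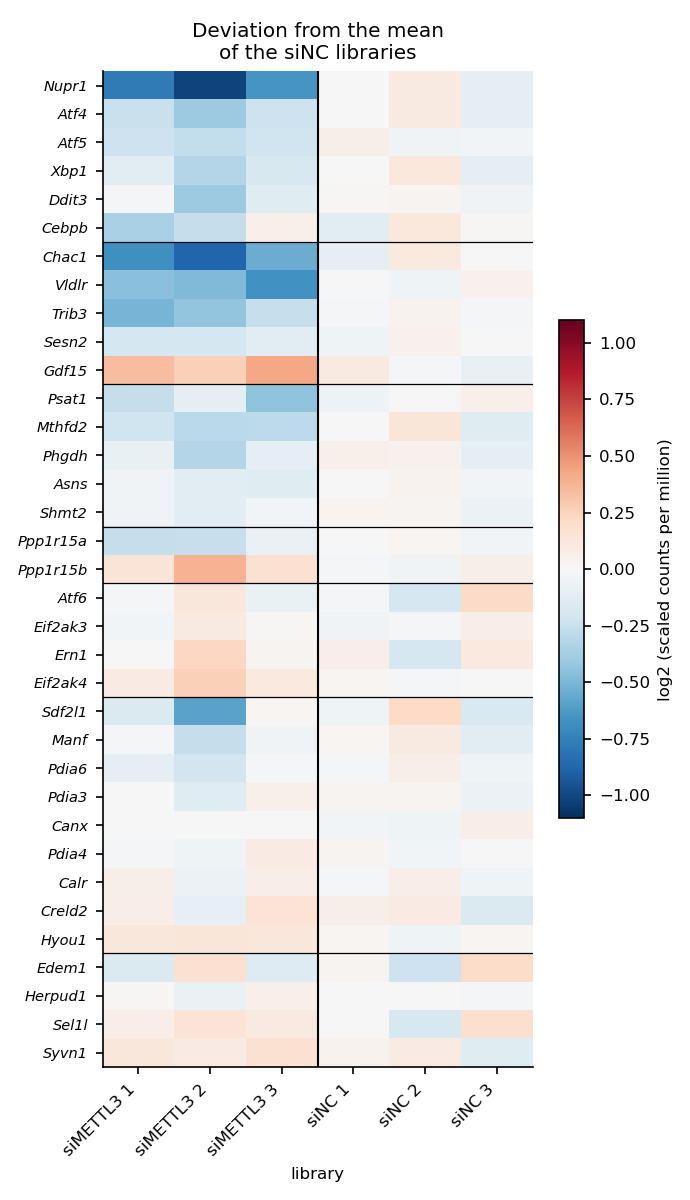
Deviation of each tested member from its siNC mean, in log2 scaled counts, in the 3 siMETTL3 libraries (left) and the 3 siNC libraries (right), with lines between roles. Nupr1, Chac1, Vldlr and Trib3 are lower in every siMETTL3 library and Gdf15 is higher, while the ER folding and degradation genes have no shared direction.

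Of the genes of ER folding 0 of 9 passed with edgeR. Their 95% intervals lay within -0.65 and 0.27 on the log2 scale, the wide lower end being that of Sdf2l1. Calr, the calcium-binding lectin chaperone and the most abundant member, measured 953, 877 and 959.6 FPKM in siMETTL3 and 863, 903 and 837 FPKM in siNC libraries (log2 fold change 0.02, 95% interval -0.12 to 0.17). Canx, its membrane-bound relative, averaged 191 ± 1.28 FPKM in siMETTL3 and 182 ± 7.67 FPKM in siNC libraries (SD, n = 3 each), with a log2 fold change of 0.00 (95% interval -0.13 to 0.12) on the scaled counts. The sign of such small differences depends on the scaling: 7 of the 13 folding and degradation genes lay below 0 with trimmed-mean scaling and 3 with library totals alone. Of all 13105 tested genes, 6490 lay below 0 with trimmed-mean scaling and 4756 with library totals alone.

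The disulfide isomerases, which form and rearrange disulfide bonds in the ER, stayed close between groups. Pdia3, which works with the lectin chaperones, averaged 504 ± 31.6 FPKM in siMETTL3 and 486 ± 19.7 FPKM in siNC libraries. Pdia4 averaged 104 ± 5.41 FPKM in siMETTL3 and 98.1 ± 2.65 FPKM in siNC libraries, and Pdia6 297 ± 18.6 FPKM in siMETTL3 and 303 ± 11.8 FPKM in siNC libraries (SD, n = 3 each). Their log2 fold changes were -0.02, 0.01 and -0.10, with intervals that reach from -0.26 to 0.14 in all.

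Hyou1, a large ER chaperone of the Hsp70 family, was the folding gene nearest to a call. It measured 82.5, 83.9 and 83.1 FPKM in siMETTL3 and 74.1, 69.5 and 73.3 FPKM in siNC libraries. There was no overlap in FPKM, and a separation in this direction held for 26.4% of all tested genes. EdgeR gave a log2 fold change of 0.13 (95% interval 0.01 to 0.24, adjusted p = 0.141). Limma on the deposited FPKM called it higher (adjusted p = 0.043), as did edgeR with library totals as the only scaling (adjusted p = 0.0408). Those alternatives move the median over all tested genes (log2 fold change) to 0.067 and 0.078, where it was 0.003 with trimmed-mean scaling.

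The smaller ER proteins varied more between libraries than between groups. Sdf2l1, a chaperone cofactor, measured 16.1, 12.0 and 18.4 FPKM in siMETTL3 and 16.8, 20 and 15.2 FPKM in siNC libraries. Manf, a secreted neurotrophic ER protein, measured 159, 136 and 158 FPKM in siMETTL3 and 157, 164 and 141 FPKM in siNC libraries. In both genes siMETTL3 replicate 2 was the lowest library and siNC replicate 2 the highest. Creld2, a secreted ER stress protein, averaged 31.8 ± 2.69 FPKM in siMETTL3 and 29.3 ± 2.82 FPKM in siNC libraries (SD, n = 3 each).

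For ER-associated degradation 0 of 4 genes passed with edgeR, 0 had an unadjusted p under 0.05, and DESeq2 and limma called 0. Syvn1, the ubiquitin ligase HRD1, measured 19.8, 19.6 and 20.5 FPKM in siMETTL3 and 18.0, 18.4 and 15.8 FPKM in siNC libraries, separated but not called (log2 fold change 0.13, edgeR adjusted p = 0.283). Sel1l, its adaptor, overlapped at 25.9 ± 0.892 FPKM in siMETTL3 and 22.9 ± 2.75 FPKM in siNC libraries (SD, n = 3 each). Herpud1, a membrane protein that joins that complex, measured 50.8 ± 2.18 FPKM in siMETTL3 and 48.2 ± 0.532 FPKM in siNC libraries, with a log2 fold change of 0.00 (95% interval -0.12 to 0.12). Its window holds both a C/EBP-ATF match and a form II ER stress match. Edem1, which hands misfolded glycoproteins to the pathway, ranged from 19.3 to 24.4 FPKM in siMETTL3 and from 17.5 to 23.6 FPKM in siNC libraries (log2 fold change -0.05, 95% interval -0.36 to 0.26).

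Other genes of the same pathways were taken from lists by role, and their calls are to be read against the 9.98% called over all genes. Of 26 further tested ATF4-branch genes, mostly amino acid transporters, biosynthetic enzymes and aminoacyl-tRNA synthetases, 2 fell (7.69%) and 0 rose, and 20 lay below 0 (median -0.11, against 0.00 over all genes). With library totals alone 14 of the 26 lay below 0, where 4756 of all 13105 tested genes did. DESeq2 called 3 lower and 0 higher, limma 1 lower and 0 higher. At an unadjusted edgeR p under 0.05, 6 of the 26 (23.1%) would count, where 27.6% of all tested genes do. Atf3, a stress-induced repressor, measured 9.05, 7.80 and 9.53 FPKM in siMETTL3 and 11.8, 11.1 and 11.2 FPKM in siNC libraries (log2 fold change -0.44, edgeR adjusted p = 0.0267). It was lost without siMETTL3 replicate 1 (adjusted p = 0.0756), siNC replicate 1 (adjusted p = 0.101) or siNC replicate 2 (adjusted p = 0.0644). Slc3a2, the heavy chain of several amino acid exchangers, measured 66.2, 58.7 and 66.0 FPKM in siMETTL3 and 74.3, 80.1 and 70.1 FPKM in siNC libraries (log2 fold change -0.31, edgeR adjusted p = 0.0475), and was lost with any 1 library left out (adjusted p 0.0507 to 0.131).

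Among 14 other eIF2 kinases and subunits of eIF2 and of its exchange factor, edgeR called 1 gene lower (Eif2ak2, 7.14% of the list), limma 1 and DESeq2 2, and none of these tools called a gene higher. The other gene called by DESeq2 was Eif2ak1 (log2 fold change -0.22, adjusted p = 0.0214 with DESeq2 and 0.0552 with edgeR), which encodes the heme-regulated eIF2 kinase and was named after its values were seen. Eif2ak2 encodes PKR, the kinase activated by double-stranded RNA and induced by interferon. It measured 88.0, 86.0 and 99.6 FPKM in siMETTL3 and 128, 119.9 and 137 FPKM in siNC libraries (log2 fold change -0.57, SE 0.0791, edgeR adjusted p = 0.0087), and the call held with each library left out (adjusted p 0.014 to 0.047). Of 25 other ER chaperones and folding enzymes 0 passed with edgeR, DESeq2 or limma, and 3 had an unadjusted p under 0.05. Once the trend with gene length was removed, edgeR called 3 of the 25 lower and 0 higher. Over all 13105 tested genes that fit called 1358 lower and 797 higher. Hspa5, which encodes the main ER chaperone BiP, averaged 551 ± 33.1 FPKM in siMETTL3 and 488 ± 21.0 FPKM in siNC libraries (SD, n = 3 each, log2 fold change 0.10, edgeR adjusted p = 0.358).

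Of 20 further ER-associated degradation genes 1 rose (5% of the list) and 0 fell with edgeR, and DESeq2 and limma each called 2 higher and 0 lower. At an unadjusted edgeR p under 0.05, 7 of the 20 (35%) would count, where 27.6% of all tested genes do. Faf2, which anchors the extraction machinery in the ER membrane, measured 15.5, 17.0 and 14.9 FPKM in siMETTL3 and 12.7, 12.5 and 12.6 FPKM in siNC libraries (log2 fold change 0.25, edgeR adjusted p = 0.0471), and was lost with any 1 library left out (adjusted p 0.0632 to 0.16). Of 11 other ER stress signalling genes, Creb3l1 fell (9.09% of the list, log2 fold change -0.30, edgeR adjusted p = 0.0355) and 0 rose; DESeq2 called 1 in each direction, and limma 1 higher. Creb3l1, an ER-anchored factor that raises collagen genes, measured 41.8, 47.2 and 44.3 FPKM in siMETTL3 and 48.8, 52.8 and 54.0 FPKM in siNC libraries. Its call held without siMETTL3 replicate 2 (adjusted p = 0.044) and was lost without siMETTL3 replicate 1 or 3 (0.124 and 0.0971) and siNC replicate 1, 2 or 3 (0.0583, 0.0942 and 0.0668, adjusted p each). It moved beside the fibroblast markers, whose sums are given above, and their part in it was not tested.

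**Figure D4:**
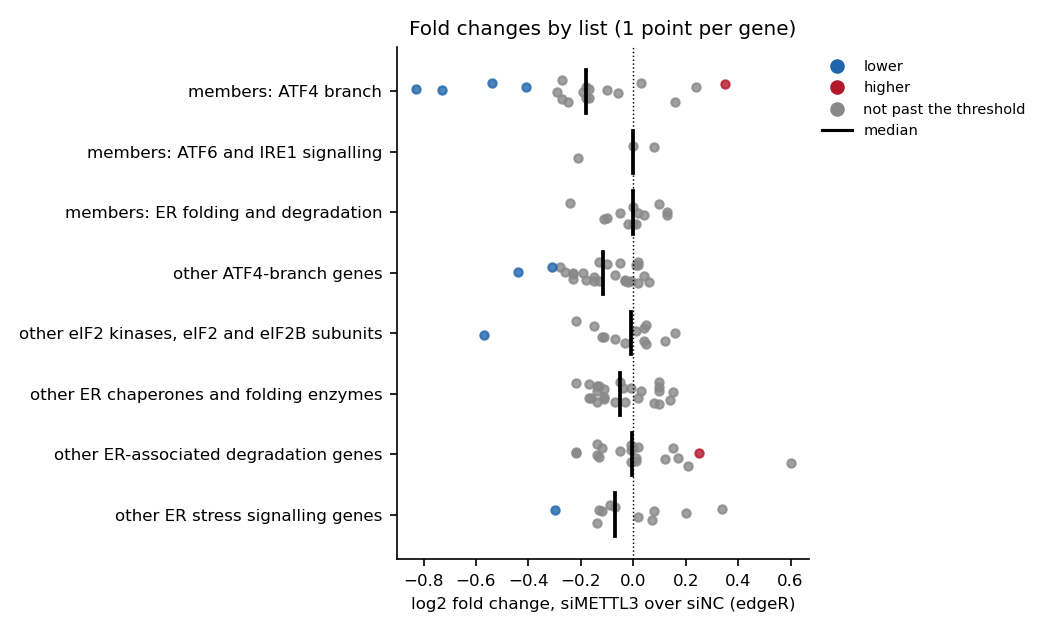
Log2 fold change, siMETTL3 over siNC (edgeR), of every tested gene by list (points) with the list's median (black line); blue points fell, red points rose and grey points did not pass. The medians are -0.18 for the ATF4-branch members and -0.11 for the other ATF4-branch genes, and between -0.07 and 0.00 for the remaining lists.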

How the data were processed

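Per the file headers, the deposited table gives 2 units per gene and library: FPKM, computed by the authors, and raw counts, which the authors deposited as whole numbers. Genes without reads are listed at 0.0001 FPKM. Within a gene the units are proportional (98.7% of values within 1% for the 14527 genes with at least 20 counts in each library), so the counts may have been derived from coverage. The submitters' processing notes name Bowtie 0.12.2 and mm8, a mouse build, without a role; the quantifier, rat build and annotation release are not given in the sources used here, nor is any use of strand.

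The 13105 genes averaging 1 FPKM or more were tested with edgeR 4.0.16 (quasi-likelihood, trimmed-mean scaling, 2-sided, R 4.3.3), without a replicate block. The count test was used as main because whole-number counts are given; limma 3.58.1 and DESeq2 1.42.0 are alternatives. SE is the log2 fold change divided by the square root of the F statistic, and 95% intervals use the fit's degrees of freedom. FPKM are as deposited, without trimmed-mean scaling, so their ratio tends to lie above the scaled fold change. With library totals alone the median log2 fold change over all tested genes was 0.078, against 0.003 with trimmed-mean scaling. For Atf4 the log2 fold changes were -0.21 and -0.29. At 71202469 to 76668751 counts per library, the spread between libraries, not counting, limits precision (replicate pairs had a chi-square of 25.7 to 76.9 for each degree of freedom). Gene length was taken from the ratio of counts to FPKM. The edgeR, DESeq2 and limma fits were run on simulated counts of independent libraries without a gene length trend. That run checks the code and does not bear on the calls made here. All 36 members, Mettl3 and up to 3 called genes a direction per pathway list are named; Hspa5 and Eif2ak1 were added after their values were seen. Members and lists were chosen with earlier results of these data known.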

Additional observations from a re-analysis of the deposited data

How the results depend on the processing

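Over 17 alternatives, 0 of the called members changed sign. The 5 members called became 8 with DESeq2 (7 lower), 3 with every gene that had a count tested (0 higher), 2 without both libraries numbered 2 and 0 with the replicate block. With 1 library left out they were 2 to 5. With library totals alone they were 6, of which 3 were higher (Gdf15, Hyou1 and Ppp1r15b) and 3 lower. With the gene length offset they were 7 (6 lower), as Atf4 and Mthfd2 were also called (edgeR adjusted p = 0.017 and 0.032). In that fit the log2 fold change of Nupr1 was -0.72 and that of Gdf15 was 0.44. Over all genes the 1308 calls (444 higher, 864 lower) became 2394 with DESeq2, 2155 with the gene length offset, 567 without both libraries numbered 2 and 64 with the replicate block, and 344 to 1066 with 1 library left out, which lowers power by construction. The split turned to 1026 higher and 630 lower with library totals alone and to 856 higher and 576 lower with limma, where the whole distribution shifts upward. The length offset and the fit without the libraries numbered 2 were chosen after seeing the data. The labels share replicate numbers and do not state whether these pair the samples. The correlations of same-numbered deviations were 0.0346, -0.255 and -0.119, and those of differently numbered libraries ranged from -0.191 to 0.266. With 3 libraries a group, such correlations cannot decide whether the numbers pair the samples. The block also removes degrees of freedom, and the reason for its lost calls was not tested. Of members that did not pass, 15 changed sign under some alternative, all with a log2 fold change of at most 0.24 in size. Mettl3 was called in every one of these fits.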
